A study of Squalius alburnoides and Squalius pyrenaicus with 4 samples.

Results

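The chip that was hybridized with RNA of the *Squalius alburnoides* complex carried probes for miRNAs of several animals, and 115 of its 1053 miRNA probes were mammalian probes that bear a number also used by a zebrafish miRNA. A probe was taken as one of these members when its name held a human (hsa), mouse (mmu) or rat (rno) miRNA but no zebrafish (dre) miRNA, when the number after miR- was that of a zebrafish probe of the chip, and when no name ended in an asterisk. The members covered 73 miRNA numbers, and 75 of them shared their number with another member, so that several probes could read the same or closely related RNAs. They were set beside the zebrafish probes of the same numbers.

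The data were 4 arrays, 1 for each genomic composition, and all came from adult fish. PAA was the triploid hybrid of *S. alburnoides*, with 1 genome of *S. pyrenaicus* (P) and 2 of the second ancestor (A), PA was the diploid hybrid, AA was the diploid non-hybrid form, and PP was the parental species *S. pyrenaicus*. Liver, muscle and brain of several fish per form gave the pooled total RNA, which was labelled with the dye Cy3 and read in a single colour. As each composition had 1 array, differences between compositions are given without a test, and nothing replicates them. The errors given below come from the up to 4 spots of a probe on 1 array. Hybrid state cannot be told apart from slide, since both hybrids shared 1 slide and both non-hybrid forms the other. The upper position of the slides held PAA and AA, the lower one PA and PP, so position goes with composition too. The *S. alburnoides* forms were caught in a different river than *S. pyrenaicus*. Fish of the AA form are always males and PAA fish are mainly females, so the river goes with species, and the sex of the pooled fish may differ between these forms.

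MicroRNAs are short RNAs that guide a silencing complex to messenger RNAs and lower their translation or stability. Much of that pairing is set by a short stretch near the 5′ end of the miRNA, and many miRNAs are nearly or fully the same in sequence in fish and mammals, where they carry the same number. A letter after the number marks close relatives, and a 3p or 5p ending marks the arm of the precursor hairpin. The probes of this chip were printed for known sequences of each species, so a mammalian probe can report a fish miRNA only as far as the sequences match. Probe sequences were not used here, and brightness was never compared between probes as if it ranked the miRNAs.

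The value of a probe was the mean log2 of its background-subtracted signal over the spots that passed, brought to a common scale by a quantile curve fitted on the zebrafish probes, and it is given as normalized intensity in arbitrary units. A probe was called detected on an array when at least 2 of its 4 spots had been kept by the image software and were at least 2 times as bright as their local background. The control spots labelled BLANK gave a stricter limit. Their 95th percentile, as normalized intensity, was 107 for the PAA array, 195 for PA, 241 for AA and 577 for PP, so a dim value on PP carried less information than the same value on PAA. Spots set aside by the image software made up 8.48% to 16.96% of the members' spots, with the highest share on PA, and the median SD among the spots of a member was between 0.14 log2 on AA and 0.29 log2 on PP. The pools were labelled as liver, muscle and brain. Among zebrafish probes, the brain miRNA dre-miR-9 had 4420 and 5050 on the hybrids PAA and PA, against 1811 and 3828 on AA and PP. The brain miRNA dre-miR-138 had 3505 and 1246, against 1671 and 1720, with PA the lowest. The muscle miRNA dre-miR-1 had 1109 and 661, against 592 and 249, and the liver miRNA dre-miR-122 had 245 and 200.5, against 271 and 151. The muscle miRNA dre-miR-206 was lower on the hybrids, at 155.5 and 162.98, against 228.7 and 179.7. It lay above the BLANK level on PAA only, as did the muscle miRNA dre-miR-133a. The blood miRNA dre-miR-451 had 323.6 and 359.9, against 198.5 and 116.4. The pancreas miRNA dre-miR-375 had 178.4 and 197.2, against 164.8 and 532.2. Both lay below the BLANK level on AA and PP. The muscle and liver probes lay below the BLANK level on PP. The brain miRNA dre-miR-124 had 193 and 243 on PAA and PA and was not detected on AA. On PP it had 265.5, below the BLANK level. The blood miRNA dre-miR-144 was detected on no array.

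Mammalian probes with a zebrafish number were read about as often as the zebrafish probes themselves. Of the 115 members, 83 were detected with RNA of PAA (72.2%, 95% Wilson interval 63.4 to 79.5), 90 with RNA of PA (78.3%, 69.9 to 84.8), 80 with RNA of AA (69.6%, 60.6 to 77.2) and 89 with RNA of PP (77.4%, 68.9 to 84.1). Zebrafish probes were detected at 77.1%, 75.2%, 70.6% and 71.6% on the same arrays, mammalian probes of other numbers at 75.6%, 77.0%, 69.8% and 73.5%, and probes with invertebrate names only at 67.8%, 72.7%, 63.9% and 73.2%. The intervals of members and zebrafish probes overlapped on every array, and the invertebrate probes also gave signal, so detection by this rule did not separate the probe classes. Above the BLANK level, 83, 45, 42 and 26 members remained on PAA, PA, AA and PP, and the order of these counts followed the order of the BLANK levels. In these counts a member was detected more often where a zebrafish probe of its number was detected too, by a margin that differed between arrays. On PAA it was 72 of 97 members (74.2%), against 11 of 18 (61.1%) where no zebrafish probe of the number was detected, and on AA it was 66 of 94 (70.2%) against 14 of 21 (66.7%).

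Across the 4 arrays, 66 members (57.4%) were detected on all, 15 on 3, 7 on 2 and 19 on 1, and 8 were detected on none. The corresponding share on all arrays was 52.3% for zebrafish probes and 52.7% for all miRNA probes. The 8 members without detection were hsa-miR-30a-5p, hsa-miR-30e-3p, hsa-miR-128b, hsa-miR-130b, hsa-miR-148b, hsa-miR-194, mmu-miR-99a and mmu-miR-217. A smaller set of 23 members (20%) lay above the BLANK level on all 4 arrays, against 22 zebrafish probes (10.1%) and 150 of all miRNA probes (14.2%). They include hsa-miR-7, hsa-miR-18b and hsa-miR-26b, whose printed copies disagreed as described further on. Among the 66 members read on every array, the median range between the highest and the lowest array was 0.79 log2, close to 0.82 log2 over all miRNA probes, and 40 of the 66 (60.6%) stayed within a range of 2-fold, against 61.8% of all miRNA probes.

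The brightest members were hsa-miR-125a, hsa-miR-143, hsa-miR-148a, hsa-miR-27b and hsa-miR-200b. The probe for miR-125a, a vertebrate relative of the developmental timing gene lin-4 of the worm *Caenorhabditis elegans*, read 51952 in PAA and 32079 in PA, against 56196 in AA and 44161 in PP. The PA value was the lowest of the 4, at −0.81 ± 0.10 log2 against AA and −0.46 ± 0.09 log2 against PP (SE over spots), the second of which was 0.67 log2 with set-aside spots. Quantile normalization over zebrafish and mammalian probes together made it the brightest probe of PA, AA and PP alike and set both differences to 0. The probe for miR-143, abundant in smooth muscle, read 24432 and 30435 in PAA and PA, against 25602 and 25659 in AA and PP, with the narrowest range of the 5 over passing spots. Its AA value was 1622 over all kept spots, dim ones included. The probe for miR-148a, known for high levels in mammalian liver, read 25115 and 27895, against 16108 and 26260, with AA below the other 3. All values of hsa-miR-125a and hsa-miR-143, and those of hsa-miR-148a except on AA, lay above 23692, the top of the range over which the curve was fitted, and there the shift at its top was used.

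A single member stood far apart between the hybrid and the non-hybrid arrays. The probe for hsa-miR-200b, of the miR-200 family that maintains the epithelial state of cells, had a normalized intensity of 21164 on PAA and 16584 on PA, against 2572 on AA and 2976 on PP. All 4 spots passed on every array, and the dimmest hybrid spot (8613, on PA) was brighter than the brightest non-hybrid spot (4062, on AA). The difference was 3.04 ± 0.29 log2 (8.23-fold) for PAA against AA and 2.83 ± 0.22 log2 (7.11-fold) against PP. For PA it was 2.69 ± 0.41 log2 (6.45-fold) against AA and 2.48 ± 0.37 log2 (5.57-fold) against PP. PAA and PA lay closer together than either lay to AA or PP. Over the alternatives of the processing that were run for named differences, these stayed between 2.02 and 3.25 log2. Under each of the scalings tried hsa-miR-200b was more than 2-fold higher on both hybrid arrays than on both non-hybrid arrays.

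The zebrafish probes of the same number did not show a difference of that size. The probe dre-miR-200a read 312 in PAA and 419.9 in PA, against 312 in AA and 190.4 in PP, dre-miR-200b was detected only on AA (186) and PP (270), and dre-miR-200c only on AA (205.8). Other members of the epithelial list were dim or flat. The probe hsa-miR-141 read 312 on PAA and 259 on PA, against 396 on AA and 212.1 on PP, and mmu-miR-203, for a miRNA of skin epithelium, read 923 and 990, against 924 and 897. The zebrafish skin probes dre-miR-203a and dre-miR-205 lay between 132.4 and 227 on every array, at or below the BLANK level except on PAA and, for dre-miR-203a, on PA. A slide difference limited to this probe cannot be told apart from a difference between hybrids and non-hybrids.

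Other bright members also lay higher on both hybrid arrays, at a smaller size. The probe mmu-miR-202, for a miRNA of the gonads, read 7060 on PAA and 7378 on PA, against 3280 on AA and 2642 on PP, which was 1.42 ± 0.08 log2 for PAA against PP and 1.48 ± 0.11 log2 for PA against PP. Its zebrafish counterpart dre-miR-202 was detected only on AA (391) and PP (178), and the human-named probe hsa-miR-202 was not detected on PAA and read 123.97 on PA, against 173 on AA and 427 on PP, with each value below the BLANK level of its array. The probe hsa-miR-129, for a brain miRNA, read 6918 and 6499 on PAA and PA, against 3796 and 3307 on AA and PP, while dre-miR-129 was detected only on PAA (201). The probe hsa-miR-192, for a miRNA of liver and gut, read 7535 and 8255, against 3772 and 3883, and dre-miR-192 could not be compared, since it was the brightest zebrafish probe on every array and the curve gave it the same value on all. The mouse-named probe mmu-miR-192 stayed between 108 and 130 on all arrays. Further members of this kind were hsa-miR-454-3p (8059 and 9044, against 3918 and 4336), hsa-miR-27b (11120 and 12812, against 5638 and 7093), hsa-miR-23a (8631 and 6326, against 4596 and 4555), hsa-miR-219 (5514 and 6752, against 3354 and 2370), rno-miR-363-3p (6581 and 6074, against 3894 and 4149) and mmu-miR-10b (3715 and 3675, against 2667 and 2438), each given as PAA and PA against AA and PP. Of the members of this kind named here, mmu-miR-202, hsa-miR-192 and hsa-miR-454-3p kept the order under every scaling tried. When each array was scaled to its median it was lost by hsa-miR-129, hsa-miR-27b, hsa-miR-23a, hsa-miR-219, rno-miR-363-3p and mmu-miR-10b, under scaling on the control spots labelled Homo by these probes except hsa-miR-129, under the joint quantile normalization by hsa-miR-23a and rno-miR-363-3p, and under scaling to the total signal by hsa-miR-23a. Some other members above the BLANK level on all arrays did not have this order. The probe hsa-miR-29b read 1401 and 1001 in PAA and PA, against 1326 and 1153 in AA and PP, hsa-miR-145, for a smooth muscle miRNA of the miR-143 cluster, 1183 and 675, against 795 and 624, and mmu-miR-301b 769 and 985, against 725 and 827.

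Placed against all probes, this order was not particular to the members. Of the 66 members read on all arrays, 22 (33.3%) were higher on both hybrid arrays than on both non-hybrid arrays, against 33% of 555 miRNA probes. The reverse order held for hsa-miR-122a and hsa-miR-196b (3.03%), against 10.6% of all miRNA probes, but for 14 members (21.2%) and 21.4% of all miRNA probes under median scaling. With hybrids higher, the order held for 11 of 18 members with a mean normalized intensity of 1000 or more (61.1%), against 51.6% of such probes of the chip, and for 11 of 48 dimmer members (22.9%), against 27.6% of dimmer probes. Over the chip, the shares of bright and dimmer probes were 16.1% and 14.6% under median scaling, and 24.2% and 21.1% on the Homo spots. The number of members with hybrids higher was 11 (16.7%, against 15.0% of all miRNA probes) under median scaling, 13 (19.7%, against 21.8%) on the Homo spots and 29 (43.9%, against 40.0%) under scaling to the total signal, so the members followed the chip. Only hsa-miR-200b and mmu-miR-202 exceeded 2-fold in all 4 contrasts of a hybrid with a non-hybrid array (1.26% of all miRNA probes did), and mmu-miR-202 lost this under each of the 4 other scalings.

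For the diploid hybrid PA, 21 of the 66 members lay between AA and PP (31.8%, against 34.2% of all miRNA probes), 29 above both (43.9%, against 40.7%) and 16 below both (24.2%, against 24.9%). For the triploid PAA the counts were 25 between (37.9%, against 32.1%), 34 above (51.5%, against 51.2%) and 7 below (10.6%, against 16.6%). The members were thus spread over these orders much as the whole chip was. The probe hsa-miR-122a, for the predominant miRNA of hepatocytes, was one of the 2 members lower on both hybrid arrays, at 1150 on PAA and 1328 on PA, against 1396 on AA and 1636 on PP. Its PP value was 1.42-fold that of PAA.

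Between the triploid and the diploid hybrid, members differed little. Of 78 members detected on both arrays, 49 were higher and 29 lower on PAA, with a median of 0.15 log2 (0.09 over all miRNA probes), and 91.0% stayed within 2-fold. The share of members higher on PAA was 62.8% (59.3% of all miRNA probes), and it was 46.2% under median scaling and 25.6% under scaling on the Homo spots, so the direction of the median depended on the scale. Beyond 2-fold, 5 members were higher and 2 lower on PAA, or 7 of 78, against 4.24% and 3.39% of all miRNA probes, or 7.63% either way, and under scaling on the Homo spots 2 were higher and 5 lower. The spots of 26 members did not overlap between the arrays, against 33.5% of all miRNA probes. Among these was hsa-miR-93, of a cluster related to the cell-cycle cluster miR-17-92. It read 1434 on PAA and 800 on PA (0.84 ± 0.08 log2), with 4 tight spots on each, and dre-miR-93 differed by 0.07 log2 only (867 and 824). The difference of hsa-miR-93 lay between 0.30 and 0.84 log2 over the alternatives run for named differences. The probe hsa-miR-23b, for a miRNA expressed with miR-27b and miR-24, read 542 on PAA and 260 on PA (1.06 ± 0.14 log2, or 0.29 log2 with set-aside spots), while dre-miR-23b read 190 and 275.

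Dimmer members of PAA against PA rested on values near the BLANK level. The probe hsa-miR-193b read 310 on PAA and 140 on PA. Since the PA value lay below the BLANK level, it was at least 1.58-fold higher over the passing spots. By the same bound hsa-miR-338, for a miRNA of oligodendrocytes and neurons (296 on PAA, 151 on PA), was at least 1.52-fold higher, and hsa-miR-200c (253 on PAA, 127 on PA) at least 1.29-fold. The bounds of hsa-miR-193b and hsa-miR-200c rested on 2 passing spots on PAA. Both PAA values lay below the BLANK level of PA over all kept spots, dim ones included, so neither bound held there. The values of hsa-miR-338 did not change. Only 1 spot of hsa-miR-200c passed on both arrays. In the other direction, mmu-miR-17-3p read 124.6 on PAA and 257 on PA (−1.05 ± 0.30 log2), and hsa-miR-184 read 129.3 and 259 (−1.001 ± 0.72 log2, or −0.36 log2 with set-aside spots). The probe hsa-miR-184 was the only member above the BLANK level on both hybrid arrays and detected on neither AA nor PP. It had 2 passing spots on each hybrid array, and 1 spot passed on both. Its PAA value lay close to the BLANK level of that array, 107. The zebrafish probe dre-miR-184 was detected on all 4 arrays, with its highest value on AA (192.4), so it did not show this pattern. How often other probes of the chip had this pattern was not tested. The remaining lower members named here differed by 1.35-fold or less. The probe hsa-miR-210, for a miRNA induced by low oxygen, read 201 on PAA and 271 on PA (−0.43 ± 0.09 log2), hsa-miR-143 differed by −0.32 ± 0.07 log2 (0.29 log2 with set-aside spots), hsa-miR-219 by −0.29 ± 0.04 log2 and hsa-miR-133a, for a muscle miRNA, by −0.18 ± 0.08 log2 (1602 and 1819).

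For 4 members the printed copies of the probe gave different values on every array. Each probe was spotted as 2 copies, spots 1 and 2 early in the spot list and spots 3 and 4 late in it. For hsa-miR-7, hsa-miR-18b, hsa-miR-20b and hsa-miR-26b the copies were more than 4-fold apart on all 4 arrays, for mmu-miR-31 on 3, for 8 members on 2 and for 26 on 1, while 76 members showed no such gap. These gaps were taken over all kept spots, dim ones included, whether or not the probe was detected. How often other probes of the chip had such a gap was not tested. The probe hsa-miR-18b, of a miR-17-92 type cluster, had background-subtracted signals of 2655, 2618, 72 and 22 in spots 1 to 4 on PAA and of 2099, 2132, 30 and 112 on PA, against 2573, 2596, 36 and 20 on AA and 1356, 1499, 59 and 25 on PP. The fourth spot passed on PA alone, and its value was averaged with the bright ones. The difference for PAA against PA was 1.97 ± 1.41 log2 over all passing spots (2607 and 667 in normalized intensity), and 0.55 log2 when only the spots that passed on both arrays were used. The same held for PA against AA, with −1.98 ± 1.41 log2 over all passing spots and −0.56 log2 over matched spots.

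The probe hsa-miR-26b showed the same behaviour. It read 3834 on PAA and 1807 on PA, against 1077 on AA and 1658 on PP in normalized intensity, but its first 2 spots had signals of 3779 and 3689 on PAA and 3314 and 3609 on PA, against 3350 and 3605 on AA and 3461 and 3320 on PP. These spots were nearly level over the 4 arrays, and the difference for PAA against AA was 1.83 ± 1.71 log2 over all passing spots and 0.13 log2 over matched spots. In hsa-miR-146b, for a miRNA that dampens innate immune signalling, the fourth spot had a signal of 11258 on PAA, 4537 on PA (set aside by the image software), 9794 on AA and 7585 on PP, while the other spots lay between 100 and 1004. Its value on PA, 140.97, against 476 on AA and 885 on PP, thus lacked the bright spot, and −1.76 ± 1.57 log2 for PA against AA became −0.18 log2 over matched spots. Which of the copies reads the named miRNA was not tested.

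Against the diploid non-hybrid form, PAA was higher for 50 of 73 members (68.5%, against 64.4% of all miRNA probes), with a median of 0.22 log2 (0.15 over all miRNA probes). Scaled to the median of each array only 30.1% of members were higher, and scaled on the Homo spots 39.7%, so no direction of the whole set can be given. Beyond 2-fold were 6 higher and 2 lower members, or 8 of 73, against 5.45% and 4.54% of all miRNA probes, or 9.98% either way, and under median scaling 4 were higher and 5 lower. After hsa-miR-200b the largest was hsa-miR-96, for a miRNA of sensory hair cells and photoreceptors, with 974 on PAA and 271 on AA (1.85 ± 0.12 log2, 3.60-fold). On the other arrays it read 729 on PA and 595 on PP, and the AA and PP values lay close to the BLANK level of their array. The zebrafish probe dre-miR-96 read 269 on PAA and 266 on PA, both above the BLANK level, and 131 on AA and on PP alike, both below it, so that it gives no order between AA and PP. The probe hsa-miR-23b read 542 on PAA and 208 on AA, which was at least 2.25-fold higher on PAA by the BLANK bound, but 0.41 log2 when set-aside spots were included.

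Lower on PAA than on AA were mmu-miR-20b (114, against 271, −1.25 ± 0.33 log2), mmu-miR-142-3p, for a miRNA of blood cells (300, against 645, −1.10 ± 0.03 log2), and mmu-miR-155, for a miRNA of activated immune cells (217.6, against 397, −0.87 ± 0.04 log2). For mmu-miR-20b over all kept spots, dim ones included, the AA value lay below the BLANK level of AA, though still above the PAA value. Probes for closely related miRNAs did not all follow. The probe rno-miR-20b read 525 on PAA and 508 on AA, hsa-miR-20b 798 and 1117, and dre-miR-155 1154 and 1047, while dre-miR-142a-3p read 171 and 151.8, the second below the BLANK level. The probe for the other arm, dre-miR-142a-5p, had 146.02 on PAA and 318 on AA (−1.12 ± 0.85 log2), with spots that overlapped. The 3 probes that are named miR-20b therefore ranged from a lower value on PAA to a level one, and hsa-miR-20b was among the members whose copies differed.

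Against the parental species, PAA was higher for 55 of 76 members (72.4%, against 63.3% of all miRNA probes), with a median of 0.31 log2 (0.26 over all miRNA probes), but only 36.8% were higher under scaling on the Homo spots. Beyond 2-fold were 11 higher and 1 lower members, or 12 of 76, against 15.1% and 8.68% of all miRNA probes, or 23.7% either way. This balance turned to 7 higher and 9 lower under median scaling and to 2 higher and 13 lower on the Homo spots. Apart from hsa-miR-200b and mmu-miR-202, the largest were hsa-miR-22, for a miRNA abundant in muscle and heart (482 on PAA and 131.6 on PP), and hsa-miR-30e-5p (528 on PAA and 201 on PP). Both PP values and both PAA values lay below the BLANK level of PP, so no fold was given. Over all kept spots, dim ones included, hsa-miR-22 read 114 on PAA, below its PP value. The probe dre-miR-22a read 307 on PAA and 152.3 on PP and dre-miR-30e 1208 and 1341. The single member named as lower on PAA was hsa-miR-122a (−0.51 ± 0.17 log2), and both values of dre-miR-122 in this pair lay below the BLANK level of PP.

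For PA against AA the members were split evenly, with 39 higher and 33 lower of 72, a median of 0.03 log2 (0.04 over all miRNA probes) and a share higher of 54.2% (53.8% of all miRNA probes), which was 33.3% under median scaling and 75% under scaling to the total signal. Beyond 2-fold were 7 higher and 3 lower members, or 10 of 72, against 6.51% and 4.65% of all miRNA probes, or 11.2% either way, and under median scaling 2 were higher and 7 lower. Besides hsa-miR-200b, the higher members were hsa-miR-96 (729, against 271, 1.43 ± 0.17 log2), hsa-miR-454-3p (1.21 ± 0.13 log2) and hsa-miR-27b (1.18 ± 0.17 log2), a miRNA of muscle and blood vessels. For hsa-miR-27b the difference was 0.05 log2 under median scaling, 0.44 log2 on the Homo spots and 0.54 log2 under joint quantile normalization. The probe hsa-miR-454-3p turned to −0.28 log2 when the spots set aside by the image software, 2 of its 4 on PA, were included. The probe mmu-miR-142-3p read 319 on PA and 645 on AA (−1.02 ± 0.02 log2), but from 2 spots on each array that were not the same spots, and −0.26 log2 with set-aside spots.

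For PA against PP, 46 of 76 members were higher (60.5%, against 56% of all miRNA probes), with a median of 0.13 log2 (0.08 over all miRNA probes), and 7 higher and 6 lower members, or 13 of 76, exceeded 2-fold, against 9.77% and 9.01% of all miRNA probes, or 18.8% either way. This was 3 higher and 7 lower under median scaling and 3 higher and 8 lower on the Homo spots. The probe hsa-miR-219, for a miRNA needed for myelin-forming oligodendrocytes, read 6752 on PA and 2370 on PP (1.51 ± 0.07 log2, or 0.85 log2 on the Homo spots), and dre-miR-219 read 1183 and 1133. For AA against PP, 38 of 73 members were higher (52.1%, against 54.2% of all miRNA probes, but 69.9% under median scaling), with a median of 0.01 log2 (0.06 over all miRNA probes), and 7 higher and 5 lower members, or 12 of 73, exceeded 2-fold, against 10.9% and 8.53% of all miRNA probes, or 19.4% either way. The split was 12 higher and 3 lower under median scaling and 2 higher and 10 lower under scaling to the total signal and on the Homo spots alike, and above the BLANK level on both arrays it was 0 higher and 1 lower. The probe hsa-miR-148a was lower on AA (16108, against 26260, −0.71 ± 0.06 log2, but 0.45 log2 with set-aside spots), as was hsa-miR-96 (271, against 595, −1.14 ± 0.14 log2). Both hsa-miR-96 values lay close to the BLANK level of their array, 241 on AA and 577 on PP. Its spots ranged from 232 to 307 on AA and from 504 to 711 on PP, so some lay below that level. The members named as higher on AA, hsa-miR-135b (350, against 141.01), mmu-miR-155 (397, against 162), rno-miR-20b (508, against 208) and hsa-miR-22 (277, against 131.6), had all their values below the BLANK level of PP. Over all kept spots, dim ones included, hsa-miR-22 read 62 on AA, below its PP value. Seen on PP alone was hsa-miR-181c, a member chosen after its values were seen, with 2427 from 2 spots of 758 and 8159 in signal while its other copy gave 26 and 19.

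Grouped by their known roles, the members of most lists moved both ways. The lists cover 99 of the 115 members, and each was described by its counts and its median difference. Among the lists that moved mostly in the same direction was the miR-17-92 group, whose clusters promote proliferation. For AA against PP, 7 of 8 measured members were higher (54.2% of all miRNA probes), with a median of 0.82 log2. Under every scaling tried 6 or 7 of 8 were higher, with medians of 0.67 to 1.16 log2, against −0.15 to 0.34 log2 over all miRNA probes. They include 3 probes named miR-17 and 3 named miR-20b. Of the zebrafish probes, dre-miR-93 was higher on AA (1.73 log2), while dre-miR-17a (−0.07 log2) and dre-miR-18a (−0.02 log2) were nearly level. The list's hsa-miR-92 was detected on PP alone in this pair, and its zebrafish probes went both ways. These were dre-miR-92a (3.51 log2) and dre-miR-92b (−0.85 log2). In this pair dre-miR-18b was detected on AA alone (169) and dre-miR-20b on PP alone (281). Every PP value of these zebrafish probes lay below the BLANK level, except that of dre-miR-92b (2024). Of the 8, hsa-miR-18b and hsa-miR-93 alone were above the BLANK level on both arrays, and the copies of hsa-miR-18b and hsa-miR-20b differed as described. For PA against AA, 7 of 8 were lower (median −0.51 log2, against 0.04 over all miRNA probes), but 4 of 8 under scaling to the total signal (−0.09 log2). The leukocyte and immune list was lower for 4 of 5 members on PA against AA (median −0.64 log2, against the same 0.04), and for 3 of 5 under scaling to the total signal. In this pair 53.8% of all miRNA probes were higher. Of the 5, 2 were above the BLANK level on both arrays, mmu-miR-142-3p and mmu-miR-155. No spot of mmu-miR-142-3p passed on both arrays, and hsa-miR-146b, which lacked its bright spot on PA, was −0.18 log2 over matched spots.

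In the miR-23/27/24 list, known for roles in vessels and muscle, all 4 members were higher on PAA than on AA, with a median of 0.94 log2 (0.15 over all miRNA probes), and all 4 were higher on PAA than on PP (0.78 log2, against 0.26). This was 2 of 4 for PAA against AA under median scaling (0.03 log2) and 2 of 4 for PAA against PP under scaling on the Homo spots (0.08 log2). Of the 4, hsa-miR-23a and hsa-miR-27b alone were above the BLANK level on both arrays of these pairs. The zebrafish probe dre-miR-23a was likewise higher on both hybrid arrays (17209 and 13526 on PAA and PA, against 13084 and 8119 on AA and PP), whereas dre-miR-27c was not (13692 and 17113, against 16853 and 16907). The list of miRNAs that target chromatin regulators (miR-26, miR-29, miR-101, miR-148 and miR-152) was higher on PAA than on AA for 7 of 7 members, with a median of 0.32 log2, against 64.4% and 0.15 log2 over all miRNA probes. Under median scaling 3 of 7 were higher (−0.16 log2, against −0.28 log2 over all miRNA probes). Of the 7, hsa-miR-26b, hsa-miR-29b and hsa-miR-148a alone were above the BLANK level on both arrays. The difference of hsa-miR-26b was 0.13 log2 over matched spots, and hsa-miR-29b read 1401 on PAA and 1326 on AA. In the neural list of 13 members, hsa-miR-7, hsa-miR-129 and hsa-miR-219 alone were above the BLANK level on all arrays. In the muscle list of 5, hsa-miR-133a alone was above it on PAA, PA and AA (1602, 1819 and 1338), and it had no value on PP, where the image software set aside all 4 of its spots, which had signals of 1009, 955, 799 and 813.

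Agreement in direction between the members and the zebrafish probes of their number was the main comparison that the shared numbering allows. For each pair of arrays, the sign of a member's difference was set against the sign of the median difference of the zebrafish probes of its number that were detected on both arrays. Signs agreed for 31 of 65 members for PAA against PA (47.7%, 95% Wilson interval 36.0 to 59.6), 35 of 53 for PAA against AA (66.0%, 52.6 to 77.3) and 36 of 61 for PAA against PP (59.0%, 46.5 to 70.5). They agreed for 33 of 54 for PA against AA (61.1%, 47.8 to 73.0), 33 of 62 for PA against PP (53.2%, 41.0 to 65.1) and 28 of 54 for AA against PP (51.9%, 38.9 to 64.6). The interval included 50% in each pair except PAA against AA. In that pair 69.8% of these members and 66.0% of their zebrafish probes were higher on PAA. Whether a shift shared by all probes of an array adds to the agreement was not tested. Signs agreed for 36 of 55 members under median scaling, 40 of 55 under scaling to the total signal and 33 of 55 on the Homo spots. It was 30 of 54 under joint quantile normalization, and without a filter on dim spots the share was 50.4%. The intervals cover counting only, as members of the same number share their zebrafish probes and all probes share the arrays.

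The same comparison was made within each class, with no test of the difference from the shares above. Zebrafish probes set against the other zebrafish probes of their number agreed in 40% of cases for PAA against PA, 33.96% for PAA against AA, 50% for PAA against PP, 62.8% for PA against AA and 56.5% for PA against PP, and in 40.9% for AA against PP. Members set against other members of their number agreed in 43.9%, 84.8%, 56.4%, 55.6%, 38.1% and 43.2% of cases in the same order. The 84.8% for PAA against AA (28 of 33, interval 69.1 to 93.3) was the one share of members well above 50%, in a pair in which most members were higher on PAA. Where a number had only a pair of probes of a class, that pair was counted from both sides with the same outcome. The separate comparisons are therefore fewer than the cases, and this interval is too narrow. Across members, Pearson's r between their differences and those of the zebrafish probes lay between −0.20 and 0.22 over the 6 pairs, as a description of probes that share their arrays.

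Members with large differences had the direction of the zebrafish probes in some pairs only. Of members beyond 2-fold with a zebrafish direction, 6 of 6 agreed for PAA against AA and 7 of 10 for PAA against PP. The counts were 3 of 7 for PAA against PA, 4 of 8 for PA against AA, 6 of 10 for PA against PP and 5 of 9 for AA against PP. In the same sense, both the member and the zebrafish probes exceeded 2-fold for 1 of the 6 and 2 of the 10. Zebrafish probes beyond 2-fold were set against the other zebrafish probes of their number too. They agreed in 0 of 5 cases for PAA against AA and 6 of 15 for PAA against PP. In the remaining pairs, in the order above, it was 1 of 2, 2 of 4, 5 of 10 and 4 of 9. For PAA against AA, hsa-miR-96 had dre-miR-96 at 1.04 log2, but hsa-miR-200b had dre-miR-200a at 0.0008 log2. The zebrafish probes differed in sign for hsa-miR-23b (dre-miR-23a 0.40, dre-miR-23b −0.28 log2). They also did for mmu-miR-142-3p (dre-miR-142a-3p 0.17, dre-miR-142a-5p −1.12 log2) and for hsa-miR-26b (dre-miR-26a 0.77, dre-miR-26b −0.16 log2). The difference of hsa-miR-26b itself was 0.13 log2 over matched spots. In the opposite sense, both the member and the zebrafish probes exceeded 2-fold for hsa-miR-146b in PA against AA (−1.76 log2, against 1.38 log2 for the zebrafish probe) and in PA against PP (−2.65 log2, against 1.37 log2). By value this also held for hsa-miR-146a in PA against PP and for hsa-miR-202 in AA against PP, but both members lay below the BLANK level on both arrays of the pair. The zebrafish probe dre-miR-146b was bright, at 6815 on PAA and 8567 on PA, against 3283 on AA and 3316 on PP, whereas hsa-miR-146a read 181.3 and 117, against 132.5 and 297. The PA value of hsa-miR-146b was below the BLANK level too, and its SE in PA against PP was 1.33 log2.

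The same miRNA name was often read by several members. Among the members, 19 names, without species and arm, were carried by 41 probes. Probes of a name could be detected on different arrays. The probe mmu-miR-10b, for a miRNA encoded in the Hox clusters, was detected on all arrays (2438 to 3715) and hsa-miR-10b on PA alone (112). The probe hsa-miR-7 was likewise detected on all (3166 and 2982 in PAA and PA, against 3756 and 1895 in AA and PP) and rno-miR-7 on PP alone (323). In hsa-miR-7, for a miRNA of neuroendocrine cells, the copies were far apart, with spots 1 and 2 at 25800 and 24478 and spots 3 and 4 at 990 and 180 in signal on PAA. The order of the arrays could differ as well, as rno-miR-363-3p was higher on both hybrid arrays while mmu-miR-363 read 536 on PAA and 370 on PA, against 554 on AA and 401 on PP.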

How the data were processed

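Total RNA of each pool was labelled with Cy3 and hybridized to a multi-species miRNA chip of 5040 spots. The slides were scanned and quantified by the authors with QuantArray, and the deposited intensity values of spot and local background were, per the file headers, neither background-subtracted nor corrected for crosstalk. The deposited files also hold other values, 1 or 0 for each spot, set in the step in which the software locates spots. No source used here says what they stand for, and 1 was read as a spot kept. The authors' own table of normalized intensity values holds 0 of the members and was not used, so all values come from the scanner files.

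The background was subtracted, spots kept with a foreground of at least 2 times background were taken, and probes with at least 2 of 4 such spots were called detected. Their mean log2 was put through the quantile curve of the zebrafish probes detected on each array, with the shift at the nearest end outside its range. The BLANK level was the 95th percentile of the kept BLANK spots, 32 to 40 of 40 per array. A value below it was bounded with "at least", against the higher of that level and the probe's own value. A zebrafish difference of exactly 0 has no direction and was left out. Scripts ran in Python 3.11.15 with numpy 2.4.6, pandas 2.3.3 and scipy 1.17.1, and normexp correction in R 4.3.3 with limma 3.58.1. The normalization and the differences between arrays were first tested on simulated arrays with raised signals and no set-aside spots. That test did not cover normexp correction, dim or set-aside spots, or copies that disagree. The number of arrays limits the precision.

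Members were named by rule. These were the 6 largest differences each way for PAA against PA and the 4 largest for every other pair. They were taken among members whose spots did not overlap and whose brighter value was above the BLANK level. Added to them were the 5 brightest, and members that exceeded 2-fold in a pair in which their zebrafish probes exceeded it in the opposite direction. Members seen on the hybrid or the non-hybrid arrays only were named too. This gave 31 members. The others named, and the split by mean intensity, were chosen after their values were seen. The members, the 19 lists of miRNA numbers and the rule itself were chosen with earlier results of these data known. The lists without counts in the text (liver and gut, blood and vessel, sensory cluster, Hox clusters, cell cycle, miR-99/100/125, miR-130/301/454, miR-30 and miR-181, pancreas, connective tissue, gonad and embryo, stress and injury) had between 0 and 5 members measured in a pair.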

Additional observations from a re-analysis of the deposited data

How the results depend on the processing

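Without a filter on dim spots 100%, 98.3%, 100% and 95.7% of the members were detected on PAA, PA, AA and PP, with at least 3 of 4 spots 62.6%, 49.6%, 51.3% and 53.9%, above the BLANK level 39.1%, 36.5% and 22.6% on PA, AA and PP, and with set-aside spots 87.0% on PP. The median difference of the members turned under median scaling to −0.037 log2 for PAA against PA and −0.25 for PAA against AA, and under scaling on the Homo spots to −0.27 for PAA against PA, −0.10 for PAA against AA and −0.22 for PAA against PP. All miRNA probes shifted with it (−0.12 and −0.28 under median scaling, −0.35, −0.12 and −0.29 on the Homo spots), and relative to them the members stayed between −0.06 and 0.10 log2 in every pair and scaling. Median scaling also gave 0.12 for PAA against PP, −0.23 for PA against AA and 0.42 for AA against PP. Set-aside spots gave 0.55 for PAA against PP and 0.43 for PA against PP, values above BLANK on both arrays 0.69 for PAA against PP, and at least 3 spots −0.072 for PA against PP.

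The number of members beyond 2-fold was 21, 20, 22, 22 and 25 without the filter on dim spots for PAA against AA, PAA against PP, PA against AA, PA against PP and AA against PP. With set-aside spots it was 14, 13, 21, 16 and 19 for PAA against PA, PAA against AA, PAA against PP, PA against AA and AA against PP. At least 3 spots gave 4, 5, 6 and 6 for PAA against PA, PA against AA, PA against PP and AA against PP. Normexp correction gave 2 for PAA against PA and 4 for AA against PP, joint quantile normalization 7 for PAA against PP and 4 for PA against AA, and the Homo spots 5 for PA against AA. Above BLANK on both arrays it was 6, 6 and 1 for PAA against PP, PA against PP and AA against PP. With matched spots only, chosen after seeing the data, it was 3 for PAA against PA and 6 for PA against AA.

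The share with the zebrafish direction moved to 65.7% on the Homo spots for PAA against PA, 50.4% without the filter for PAA against AA and 33.3% with at least 3 spots for PA against PP. Above BLANK on both arrays it was 40%, 80% and 100% for PAA against PP, PA against PP and AA against PP, over 5, 5 and 4 members. Where both differences reached 0.5 log2 it was 0% for PAA against PA (1 member), 72.2% for PAA against PP, 40% for PA against AA and 40% for PA against PP. The cause of these moves was not tested.

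Of 43 named differences, 38 kept their sign under the alternatives run for them. The setting without a filter on dim spots was not run for named differences. Over all kept spots, dim ones included, hsa-miR-22 was 114 on PAA and 62 on AA, against 131.6 on PP, so both of its named differences turned. Likewise hsa-miR-26b was 308 on PAA against 570 on AA, and hsa-miR-18b was 299 on PAA against 324 on PA. With set-aside spots included, hsa-miR-143 turned to 0.29 log2 for PAA against PA, hsa-miR-454-3p to −0.28 for PA against AA, hsa-miR-125a to 0.67 for PA against PP and hsa-miR-148a to 0.45 for AA against PP. Joint quantile normalization gave hsa-miR-125a 0 for PA against AA and 0 for PA against PP, as the brightest probe gets the same value on each array. Members higher on both hybrid arrays numbered 11 under median scaling and 13 on the Homo spots, against 22, settings added after seeing the data. No paired analysis was possible because each composition has 1 array. The authors' table could give no value for a member.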
